A study of Mus musculus with 3 samples.

Results

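Lef1, Bach2, Satb1, Foxp1 and Foxo1 encode transcription factors that are known for their part in the naive, resting state of T cells. They were taken by gene symbol from the probe sets that the platform annotation pairs with 1 symbol, and these 5 genes are described here out of 10191 genes with a value. Each was measured by 1 probe set, and no probe set with several symbols carried one of their names. Their Entrez gene IDs are 16842 for Lef1, 12014 for Bach2, 20230 for Satb1, 108655 for Foxp1 and 56458 for Foxo1.

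The study compared 3 sorted CD8+ T cell populations with 1 Affymetrix array each, namely the CXCR3+ innate, the CXCR3- innate and the naive cells. Spleen and lymph node cells of C57BL/6 mice were used for every population, all with the CXCR3-GFP reporter, in mice called CIBER mice in the extraction protocol, which were kept free of pathogens and given no treatment that the labels name. RNA came from about 3 to 5 mice per the labels, which give no age and do not say whether mice were pooled. The word innate is taken from the labels, which use it for the pair of populations that are not naive. Antibodies to CD44 and CD8 were among those used for sorting, and the gates are not given in the sources used here. Values are log2 expression values, so a difference of 1 is 2-fold. With 1 array per population there is no spread between replicates, no test and no error, and higher or lower refers to the values on these 3 arrays.

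LEF1 is a DNA-binding factor of the TCF/LEF family that works with beta-catenin or with Groucho-type corepressors. BACH2 is a repressor that pairs with small MAF proteins and holds back effector differentiation, and SATB1 organises chromatin in developing and resting T cells. FOXP1 and FOXO1 are forkhead factors: FOXP1 is needed for naive T cells to stay quiescent, and FOXO1 activates genes of homing and survival such as Klf2, Ccr7 and Il7r. FOXO1 is moved out of the nucleus after phosphorylation by AKT, so its activity is not set by its transcript level alone.

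The 3 stretches of DNA that follow are the promoter windows of these genes that hold the core letters of the TCF/LEF motif, shown because LEF1 is itself one of the factors described. They are RefSeq sequences of the mouse build GRCm38.p6, each running from 250 bases before a start site to 50 bases after it, on the strand of the gene. The letters searched were CTTTGA for TCF/LEF, TGTTTAC for forkhead factors and TGANTCA for BACH2 and AP-1 factors, on both strands, and no 2 of these motifs overlapped in the windows printed. The Lef1 window, chr3:131156044-131156343 on the plus strand, belongs to the most downstream of 4 listed start sites. The Bach2 window, chr4:32417185-32417484 on the plus strand, is the only one listed for that gene. The Foxp1 window, chr6:99266466-99266765 on the minus strand, belongs to the second of 3 start sites in the order of transcription. Capitals mark the motif, which reads TCAAAG because each match lies on the strand opposite to the gene.
Lef1: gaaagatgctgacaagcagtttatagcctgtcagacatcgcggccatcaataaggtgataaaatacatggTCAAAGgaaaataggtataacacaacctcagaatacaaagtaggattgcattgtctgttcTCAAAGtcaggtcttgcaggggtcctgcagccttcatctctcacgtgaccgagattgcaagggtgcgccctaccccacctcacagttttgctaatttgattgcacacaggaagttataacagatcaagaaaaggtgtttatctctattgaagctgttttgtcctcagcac
Bach2: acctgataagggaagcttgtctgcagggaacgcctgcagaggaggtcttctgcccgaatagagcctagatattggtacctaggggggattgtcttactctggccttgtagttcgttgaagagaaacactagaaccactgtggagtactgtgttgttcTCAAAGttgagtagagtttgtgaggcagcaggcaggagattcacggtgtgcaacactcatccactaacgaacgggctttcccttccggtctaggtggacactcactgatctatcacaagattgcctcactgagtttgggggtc
Foxp1: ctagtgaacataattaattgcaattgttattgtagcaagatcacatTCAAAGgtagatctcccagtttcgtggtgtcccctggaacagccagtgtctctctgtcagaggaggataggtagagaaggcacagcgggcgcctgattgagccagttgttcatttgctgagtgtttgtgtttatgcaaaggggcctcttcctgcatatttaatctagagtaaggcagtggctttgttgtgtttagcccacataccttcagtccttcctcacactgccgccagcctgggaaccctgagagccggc

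The Lef1 window held 2 matches, whose first bases lie 180 and 120 bases before the start site. The match of Bach2 begins 93 bases and that of Foxp1 204 bases before it. In all, 3 of the 14 windows listed for the 5 genes held CTTTGA, against 16% of 32851 promoter windows of the same length. None of the 14 held TGTTTAC, which 3.65% of all windows held, and none held TGANTCA, which 7.81% held. These are letter matches in short windows and say nothing of binding.

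Lef1 had the largest difference from naive cells among the 5 genes, and it was almost the same in both innate populations. Its log2 value was 10.25 on the CXCR3+ innate array, 10.30 on the CXCR3- innate array and 11.01 on the naive array. The naive array stood alone at the top, with the innate arrays 0.04 apart. Lef1 was 1.69-fold lower in CXCR3+ innate than in naive cells, a difference of -0.76 on the log2 scale. In CXCR3- innate cells it was 1.64-fold lower than in naive cells, a difference of -0.72, so that this population showed 94.2% of the log2 difference seen in CXCR3+ innate cells. Both differences use the same naive array.

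Bach2 showed another pattern. It read 8.88 in CXCR3+ innate cells and exactly 9.19 in both CXCR3- innate and naive cells. The CXCR3+ innate array was the low one, 1.24-fold below each of the other arrays, which is -0.31 on the log2 scale. An identical value does not show identical expression, because 34.19% of probe sets had 1 value shared by all 3 arrays and 42.1% of genes had the same value in CXCR3- innate and naive cells. Among the 617 genes of like level described further on, that share was 8.43%.

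The CXCR3- innate array lay between the others for Satb1, with 9.23 on the CXCR3+ innate array, 9.41 on the CXCR3- innate array and 9.66 on the naive array. The CXCR3+ innate value was 1.35-fold below the naive value, a log2 difference of -0.44 and the second largest of the 5 genes. The CXCR3- innate value lay at 57.6% of that distance, with a log2 difference of -0.25 from naive cells.

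The forkhead genes differed less. Foxp1 read 9.60 on the CXCR3+ innate array, 9.87 on the CXCR3- innate array and 9.93 on the naive array, so the CXCR3- innate value was close to the naive one, at 17.5% of the distance. Its log2 difference from naive cells was -0.33 in CXCR3+ innate cells and -0.06 in CXCR3- innate cells. Foxo1 had the smallest span of the 5 genes, with 9.45 on the CXCR3+ innate array, 9.55 on the CXCR3- innate array and 9.68 on the naive array. It differed from naive cells by -0.23 on the log2 scale in CXCR3+ innate cells, which is 1.18-fold, and by -0.13 in CXCR3- innate cells.

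**Figure D1:**
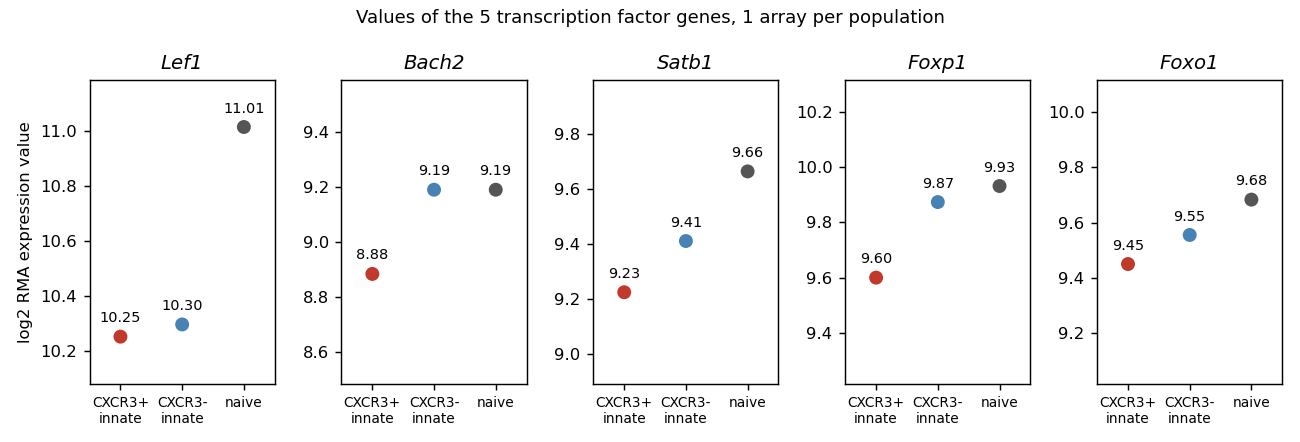
Log2 RMA expression value (vertical axis, the same span of 1.1 in every panel but other limits) of Lef1, Bach2, Satb1, Foxp1 and Foxo1 in the CXCR3+ innate, the CXCR3- innate and the naive population; each point is 1 array, with its value printed and no error available. CXCR3+ innate cells had the lowest value of each gene, and Lef1 alone had both innate values far below the naive value of 11.01.

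In CXCR3+ innate minus naive cells, each of the 5 genes had a difference below 0, against 34.2% of all genes. No member was at least 2-fold lower, against 0.0981% of all genes called by a rule that also asks for a higher value at or above the array median, which each of the 5 genes met. At 1.5-fold, Lef1 was the only member called lower, against 0.697% of all genes. The median difference of the 5 genes was -0.33, against 0.00 over all genes. Lef1 stood at the low end of the table, where only 0.363% of genes had a difference as low or lower. The same share was 2.16% for Satb1, 4.49% for Foxp1, 5.34% for Bach2 and 9.19% for Foxo1.

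Well-expressed genes as a whole sat lower on the innate arrays. The 617 genes whose mean over the 3 arrays lay within the range of the 5 genes, 9.09 to 10.52, had a median difference of -0.10 for CXCR3+ innate minus naive and of -0.21 in CXCR3- innate minus naive cells. Of these genes, a set defined after the data were seen, 66.1% were below 0 in CXCR3+ innate minus naive cells and 3.57% were at least 1.5-fold lower. Lef1 was still at the low end there, with 1.62% of the 617 genes as low or lower, and Satb1 followed with 6.65%. Foxp1 at 15.2%, Bach2 at 17.5% and Foxo1 at 29.5% lay well inside the spread of genes of their level.

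In CXCR3- innate minus naive cells, 4 of the 5 genes were below 0 and Bach2 was equal, against 36.3% of all genes and 75.2% of the 617 well-expressed genes below 0. None was at least 2-fold lower, against 0.226% of all genes, and Lef1 was called at 1.5-fold, against 1.6% of all genes and 9.56% of the well-expressed genes. The median of the 5 genes was -0.13, against 0.00 over all genes and -0.21 over the well-expressed genes. Lef1 was again low, with 5.02% of the well-expressed genes as low or lower. Satb1 at 42.3%, Foxo1 at 59.2%, Foxp1 at 68.4% and Bach2 at 83.6% were in the middle or upper part of that set. After quantile normalization Lef1 was at -0.55 and no longer reached 1.5-fold, and Bach2 at 0.15, Foxp1 at 0.15 and Foxo1 at 0.06 were above 0. The direction of Foxp1 and Foxo1 in this comparison therefore depended on the scaling of the arrays.

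**Figure D2:**
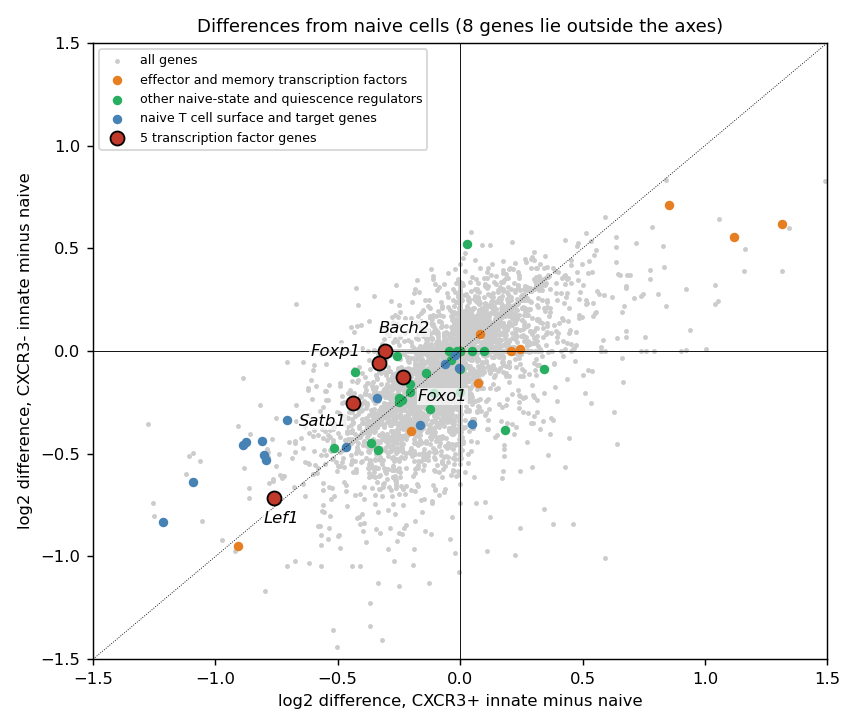
Log2 difference from naive cells in CXCR3+ innate cells (horizontal axis) and in CXCR3- innate cells (vertical axis), for all genes in grey, 3 gene lists in colour and the 5 transcription factor genes in red; each point is 1 gene, the dotted line marks equal differences, and 8 genes lie outside the axes. Both axes share the naive array. Lef1 lies near the dotted line at -0.76 in CXCR3+ innate and -0.72 in CXCR3- innate cells, and Bach2 and Foxp1 lie left of 0 at or near the horizontal line.

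The direct comparison of CXCR3+ innate minus CXCR3- innate cells does not use the naive array. Each of the 5 genes was below 0 in it, against 22.3% of all genes and 27.4% of the well-expressed genes. The differences were -0.31 for Bach2, -0.27 for Foxp1, -0.19 for Satb1, -0.11 for Foxo1 and -0.04 for Lef1. None reached 1.5-fold, against 0.0785% of all genes and 0.324% of the well-expressed genes that were at least 1.5-fold lower, and none reached 2-fold, against 0.00981%. The median was -0.19, against 0.00 over all genes and 0.03 over the well-expressed genes. Bach2 had 4.38% and Foxp1 5.67% of the well-expressed genes as low or lower, whereas Lef1 had 20.9%. The gene with the largest difference from naive cells, Lef1, differed least between the innate populations, and Bach2, which had equal values in CXCR3- innate and naive cells, differed most.

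CXCR3+ innate cells had the lowest of the 3 values for each of the 5 genes, against 12.6% of all genes and 21.6% of the well-expressed genes. The full order of CXCR3+ innate below CXCR3- innate below naive was seen in 4 of 5, all but Bach2, against 6.42% of all genes and 15.4% of the well-expressed genes. In each of the scalings tried, the 5 differences of CXCR3+ innate minus naive and the 5 of CXCR3+ innate minus CXCR3- innate stayed below 0. In CXCR3- innate minus naive cells, Lef1 and Satb1 stayed below 0 in each of them.

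**Figure D3:**
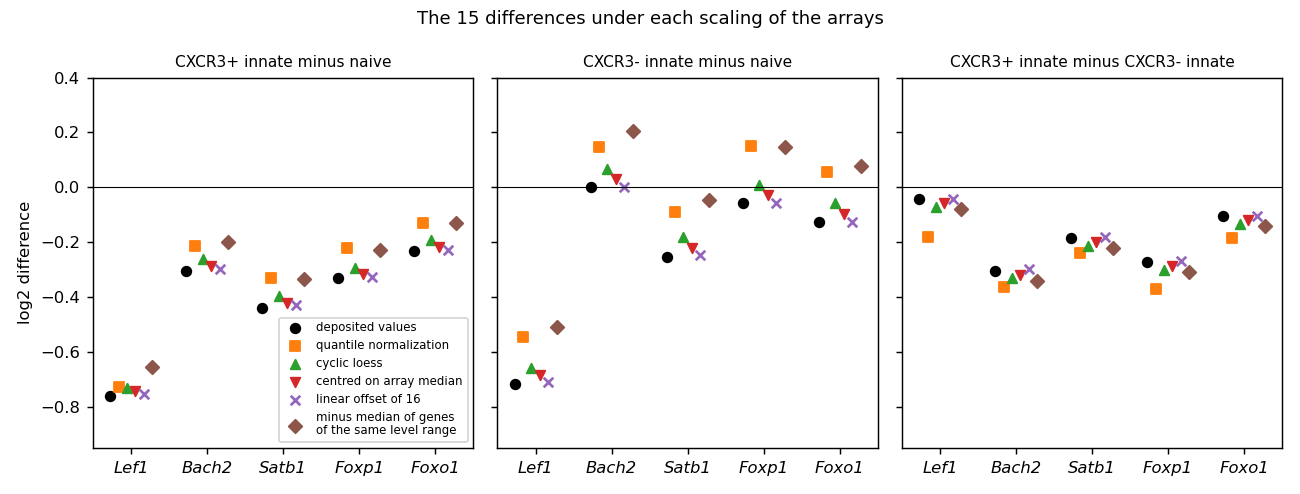
Log2 difference (vertical axis) of each of the 5 genes in the 3 comparisons, as deposited and under 5 other scalings, each with its own marker; no error is available with 1 array per population. The outer panels hold only values below 0, while Bach2, Foxp1 and Foxo1 lie on both sides of 0 or at it in the middle panel, CXCR3- innate minus naive.

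The level of the CD8 T cell genes was examined on the same arrays, since less RNA per cell and fewer cells of a type cannot be told apart in sorted bulk samples. Each of the 5 CD8 T cell markers Cd8a, Cd8b1, Cd3d, Cd3e and Cd3g had a value on every array, from 8.31 to 11.81. Their median difference from naive cells was -0.29 in CXCR3+ innate and -0.52 in CXCR3- innate cells. The medians of the 617 well-expressed genes, chosen by the level of the 5 factors, were -0.10 and -0.21. CXCR3- innate cells had the lowest value in 4 of the 5 markers and in none of the 5 transcription factor genes. The share of all genes that were lowest in that population was not counted. Of the well-expressed genes, 75.2% were below 0 in CXCR3- innate minus naive cells. Only 27.4% of the well-expressed genes were below 0 in CXCR3+ innate minus CXCR3- innate cells. Cd3g, a chain of the T cell receptor complex, read 10.72 on the CXCR3+ innate array, 10.17 on the CXCR3- innate array and 11.10 on the naive array. Of 10 B cell markers none had a value here (B cells are known to express Bach2, Foxp1 and Foxo1). Of the markers of CD4 and regulatory T cells 2 of 6, of immature T cells 1 of 4, of NK cells 2 of 5 and of myeloid and dendritic cells 3 of 9 had values, between 6.93 and 7.76. Their summed levels on the log2 scale were 8.27 on the CXCR3+ innate array, 8.57 on the CXCR3- innate array and 8.41 on the naive array for CD4 and regulatory T cells. The sum for immature T cells was 7.75 in both innate populations and 7.73 in naive cells. For NK cells it was 8.13 on the CXCR3+ innate array, 8.23 on the CXCR3- innate array and 8.07 on the naive array, and for myeloid and dendritic cells 8.91 on the CXCR3+ innate array, 8.99 on the CXCR3- innate array and 8.94 on the naive array. Cd74, a listed gene of myeloid and dendritic cells, was carried only by a probe set with several symbols and was left out of these counts and sums. The part of other cells in the results was not tested. Among the genes of the sort, Cd44 read 8.30 on the CXCR3+ innate array, 7.88 on the CXCR3- innate array and 7.24 on the naive array. Cxcr3, the chemokine receptor gene that names the populations, read 7.97 on the CXCR3+ innate array, 7.82 on the CXCR3- innate array and 7.57 on the naive array. The innate arrays thus differed by 0.15 on the log2 scale in Cxcr3.

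Other regulators of the naive and quiescent state were counted next. Of 28 listed genes 25 had a value, and Tcf7, which encodes the LEF1 relative TCF-1, was not analysed here. In CXCR3+ innate minus naive cells 16 were below 0, 5 above and 4 equal, against 34.2% of all genes and 66.1% of the well-expressed genes below 0. The median was -0.11, against -0.10 over the well-expressed genes. In CXCR3- innate minus naive cells 18 were below 0, 1 above and 6 equal, against 36.3% and 75.2% below 0. The median was again -0.11, against -0.21 over the well-expressed genes. Quantile normalization brought both list medians to -0.03. The well-expressed genes were chosen by the level of the 5 factors, and this list held genes below it, such as Klf7. None of the 25 genes was 1.5-fold lower or higher in either comparison. Of all genes, 0.697% were lower and 0.5% higher in CXCR3+ innate minus naive cells. In CXCR3- innate minus naive cells 1.6% were lower and 0.0981% higher. CXCR3+ innate cells had the lowest value in 9 of the 25 genes, against 12.6% of all genes and 21.6% of the well-expressed genes. CXCR3- innate cells had the lowest value in another 9, for which the share of all genes was not counted. Between the innate populations the median was 0.00, with 10 genes below 0 and 11 above. In that comparison 22.3% of all genes and 27.4% of the well-expressed genes were below 0.

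Within that list, Bcl11b came closest to Lef1 in pattern. This zinc finger factor, which maintains T cell identity, read 9.40 on the CXCR3+ innate array, 9.44 on the CXCR3- innate array and 9.92 on the naive array. Klf2, a FOXO1 target that drives expression of homing genes, read 9.15 on the CXCR3+ innate array, 9.00 on the CXCR3- innate array and 9.49 on the naive array. The ETS family gene Elf1 read 10.11 on the CXCR3+ innate array, 10.03 on the CXCR3- innate array and 10.48 on the naive array. Both had their lowest value in CXCR3- innate cells, unlike the 5 transcription factor genes. Klf7, another Krüppel-like factor, was closer to Foxp1 than to Lef1 in pattern, at 7.83 on the CXCR3+ innate array, 8.15 on the CXCR3- innate array and 8.26 on the naive array. Myb, a factor of lymphocyte progenitors and stem-like memory cells, was the 1 gene above naive in CXCR3- innate cells, with 8.06 on the CXCR3+ innate array, 8.56 on the CXCR3- innate array and 8.04 on the naive array.

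Few family relatives of the 5 factors were measured, 4 of 11. Bach1, Foxo3 and Foxo4 had identical values on the 3 arrays, at 7.16, 7.16 and 7.07, near the bottom of the table. Here too, an identical value does not show identical expression. Foxp3, the factor of regulatory T cells, read 7.30 on the CXCR3+ innate array, 7.36 on the CXCR3- innate array and 7.30 on the naive array. The list median was 0.00 in each of the 3 comparisons.

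Partner genes of LEF1 and BACH2 were measured in 11 of 16 cases. Their median difference was -0.05 in CXCR3+ innate minus naive cells, with 6 below 0 and 3 above. Of all genes 34.2% and of the well-expressed genes 66.1% were below 0 there. In CXCR3- innate minus naive cells the median of the partner genes was -0.05, with 6 below 0 and 2 above, against 36.3% and 75.2% below 0. Quantile normalization turned that median to 0.05. Between the innate populations the median of the partner genes was 0.00. Hdac1, a histone deacetylase that TCF/LEF factors and corepressors recruit, was the only one past 1.5-fold and only just, with a difference of -0.60 in CXCR3+ innate minus naive cells, where 0.697% of all genes were called lower at that size. It read 8.27 on the CXCR3+ innate array, 8.80 on the CXCR3- innate array and 8.87 on the naive array, so that, as with Bach2 and Foxp1, the CXCR3+ innate array was the low one. Hdac2 read 7.22 on the CXCR3+ innate array, 7.04 on the CXCR3- innate array and 7.50 on the naive array. The Groucho-type corepressor gene Tle4 read 8.83 on the CXCR3+ innate array, 8.71 on the CXCR3- innate array and 9.04 on the naive array. Apc and Gsk3b, which encode parts of the complex that degrades beta-catenin, differed from naive cells by -0.17 and -0.10 in CXCR3+ innate cells and by -0.11 and -0.10 in CXCR3- innate cells. Beta-catenin itself, Ctnnb1, and the small MAF gene Mafk had identical values on the 3 arrays, and both are named here after their values were seen. This does not show unchanged expression, because 34.19% of probe sets had 1 value shared by all 3 arrays.

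Signalling genes upstream of FOXO1 were measured in 14 of 17 cases, and their median for CXCR3+ innate minus naive cells was -0.03. It was -0.11 for CXCR3- innate minus naive cells and 0.0050 between the innate populations, and quantile normalization turned these medians to 0.0066, 0.0031 and -0.02, so no direction is given for the list. None was called at 1.5-fold, and few genes were in the whole table: 0.697% lower and 0.5% higher in CXCR3+ innate minus naive cells, and 1.6% lower and 0.0981% higher in CXCR3- innate minus naive cells. With 14 genes, a count of 0 is near that background. Pik3ip1, an inhibitor of phosphoinositide 3-kinase, had the largest negative difference in CXCR3+ innate cells, with 8.10 on the CXCR3+ innate array, 8.14 on the CXCR3- innate array and 8.63 on the naive array. Pik3cd, the catalytic p110 delta subunit of leukocytes, read 8.62 on the CXCR3+ innate array, 8.49 on the CXCR3- innate array and 9.01 on the naive array. Pik3ca, another catalytic subunit, differed from naive cells by -0.32 in CXCR3+ innate and by -0.33 in CXCR3- innate cells, and Rictor of mTOR complex 2 by -0.35 in CXCR3+ innate and by -0.24 in CXCR3- innate cells. Sgk1, a kinase that can phosphorylate FOXO factors, read 7.03 in CXCR3+ innate cells and 6.45 in both other populations, near the lower end of the table.

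The list of surface and target genes of naive T cells was drawn up with earlier results of these arrays known. Its median lay further below 0 than that of the 5 factors in each comparison. This did not hold gene by gene: some, such as Cd28 at -0.0031, differed less than each factor in CXCR3+ innate minus naive cells. Of 16 genes with a value among 20 listed, 15 were below 0 in CXCR3+ innate minus naive cells, against 34.2% of all genes and 66.1% of the 617 well-expressed genes. Those 617 genes were chosen by the level of the 5 factors, not by that of this list. The list held genes below that range, such as Tdrp, and above it, such as Ccr7. At least 1.5-fold lower were 9, against 0.697% of all genes and 3.57% of the well-expressed genes, and 3 were at least 2-fold lower, against 0.0981% of all genes. The median was -0.75, against 0.00 over all genes. In CXCR3- innate minus naive cells all 16 were below 0, against 36.3% of all genes and 75.2% of the well-expressed genes. At least 1.5-fold lower were 3, against 1.6% of all genes and 9.56% of the well-expressed genes, and 1 was at least 2-fold lower, against 0.226% of all genes. The median was -0.44 in that comparison. Between the innate populations the median was -0.28, and 10 of the 16 had the full order that 4 of the 5 factors showed, against 6.42% of all genes and 15.4% of the well-expressed genes. Itgae, the integrin chain CD103, read 7.15 on the CXCR3+ innate array, 8.04 on the CXCR3- innate array and 9.07 on the naive array. Igfbp4, an insulin-like growth factor binding protein, differed from naive cells by -1.21 in CXCR3+ innate and by -0.83 in CXCR3- innate cells, and Als2cl by -1.09 in CXCR3+ innate and by -0.64 in CXCR3- innate cells. Dapl1 read 10.06 on the CXCR3+ innate array, 10.49 on the CXCR3- innate array and 10.95 on the naive array, and Pecam1, an adhesion molecule of naive T cells and endothelium, read 7.80 on the CXCR3+ innate array, 8.23 on the CXCR3- innate array and 8.68 on the naive array.

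Genes known to depend on FOXO1, whether directly or not, did not share 1 order, in a comparison picked out after their values were seen. The homing receptor gene Ccr7 read 11.19 on the CXCR3+ innate array, 11.56 on the CXCR3- innate array and 12.00 on the naive array, and S1pr1, the receptor for exit from lymph nodes, read 9.34 on the CXCR3+ innate array, 9.60 on the CXCR3- innate array and 10.13 on the naive array. Il7r, the interleukin-7 receptor chain, read 11.25 on the CXCR3+ innate array, 10.85 on the CXCR3- innate array and 11.21 on the naive array. Il7r and Klf2 were thus lowest in CXCR3- innate cells, while Ccr7, S1pr1 and Foxo1 itself were lowest in CXCR3+ innate cells.

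Effector and memory transcription factors, measured in 14 of 20 cases, held members on the other side. Their median was 0.04 for CXCR3+ innate minus naive cells, 0.00 for CXCR3- innate minus naive cells and 0.09 between the innate populations. In CXCR3+ innate minus naive cells Tbx21, which encodes T-bet, and Bhlhe40 were at least 2-fold higher, against 0.137% of all genes. Tbx21 read 8.68 on the CXCR3+ innate array, 7.98 on the CXCR3- innate array and 7.37 on the naive array, the reverse of the order of Satb1, Foxp1 and Foxo1. Eomes, the T-box relative of T-bet, read 7.92 on the CXCR3+ innate array, 7.77 on the CXCR3- innate array and 7.06 on the naive array, with both innate values well above the naive one, as those of Lef1 were below it. Bhlhe40, a factor of activated lymphocytes, read 7.93 on the CXCR3+ innate array, 7.36 on the CXCR3- innate array and 6.81 on the naive array. Id2, an inhibitor of E proteins, was at least 1.5-fold below the naive value on both innate arrays, against 0.697% of all genes in CXCR3+ innate and 1.6% in CXCR3- innate minus naive cells. It read 9.08 on the CXCR3+ innate array, 9.04 on the CXCR3- innate array and 9.99 on the naive array, while Runx3, a factor of CD8 lineage cells, read 8.61 on the CXCR3+ innate array, 8.42 on the CXCR3- innate array and 8.81 on the naive array. Prdm1, a gene that BACH2 is known to repress, was not analysed here. None of these 14 genes had its lowest value of the 3 arrays in CXCR3+ innate cells alone, against 12.6% of all genes.

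**Figure D4:**
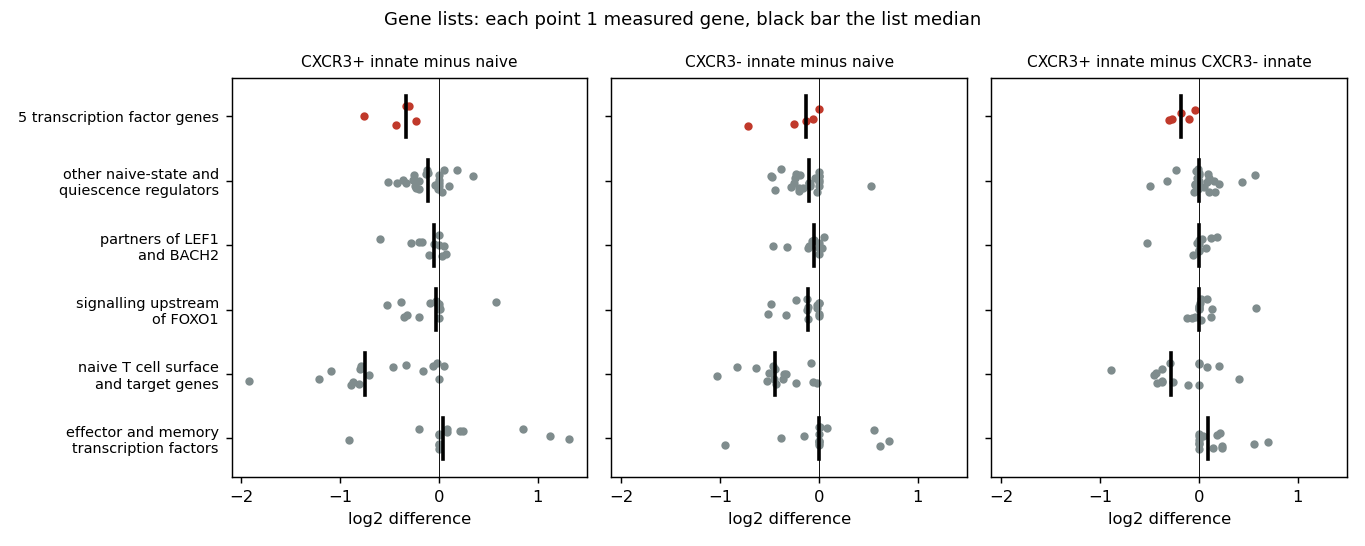
Log2 difference (horizontal axis) of each measured gene of 6 lists in the 3 comparisons; each point is 1 gene, spread vertically for legibility, and the black bar is the list median. The 5 transcription factor genes have medians of -0.33, -0.13 and -0.19 from the left panel to the right, between the other regulators and the surface and target genes of naive T cells in each panel.

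The genes most like Lef1 in pattern were sought over the 2 differences from naive cells, among genes past the filter on dim values. The nearest were Chaserr, a long noncoding RNA, Slc12a7, a potassium chloride cotransporter, Gtf2i, which encodes the transcription factor TFII-I, and Pced1b, at Euclidean distances of 0.08, 0.09, 0.10 and 0.10. Gtf2i, for example, read 8.74 on the CXCR3+ innate array, 8.76 on the CXCR3- innate array and 9.42 on the naive array. In a count over all 10191 genes, dim ones included, 5 others lay within 0.1 of Lef1 on both differences. More of the 10191 genes lay within that distance of the other factors, with 78 for Bach2, 89 for Foxp1, 100 for Satb1 and 473 for Foxo1. Each of these factors differed less from naive cells than Lef1 did. No other factor reached the difference of 0.5 from naive cells that was asked for before like genes were named.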

How the data were processed

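RNA of 3 sorted CD8+ T cell populations was measured on 1 Affymetrix array each. Per the submitters' processing notes, the deposited log2 values are RMA values, made by the authors in Affymetrix Expression Console. Its version and the genome build of the array are not given in the sources used here. The method corrects background, brings arrays to a common distribution and summarises probes by median polish. The table held 12417 probe sets, each with a highest value of at least 7.000023, so a gene below 7 on every array has no value here. The platform annotation gave 10576 probe sets 1 symbol, 1108 several and 733 none; the 273 genes with several single-symbol probe sets were averaged, which gave 10191 genes. Precision is limited by the number of arrays.

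No test was made, since each population has 1 array. A gene was called when it differed by at least 2-fold, or 1.5-fold in a second count, with its higher value at or above the median of its array. Members, lists and rules were chosen with earlier results of these data known. In each of 6 lists, up to 5 genes with the largest difference from naive cells were named; for each member at least 0.5 from naive cells, the 4 nearest genes were named, leaving out predicted genes, receptor families and small RNAs. The 617 genes of the members' level range, the counts of genes of like pattern and a few genes named as such were chosen after the data were seen. Alternatives were cyclic loess, quantile normalization, centring on the median, a linear offset of 16, other rules for probe sets, the filter on dim genes at the 75th percentile or none, and 1.5-fold or 3-fold calls. Python 3.11.15, numpy 2.4.6, pandas 2.3.3, matplotlib 3.10.9, R 4.3.3 and limma 3.58.1 were used. Promoter sequences came from RefSeq, build GRCm38.p6, and all 5 genes matched by symbol.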

Additional observations from a re-analysis of the deposited data

How the results depend on the processing

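Of 105 alternative values of the 15 gene differences, 86 moved by less than 0.1 on the log2 scale, and no member reached 2-fold under any of them. The 86 include the other rules for probe sets, which could not move a gene measured by 1 probe set. They therefore say nothing of stability, and the count of 86 overstates it. In CXCR3+ innate minus naive cells, quantile normalization gave -0.33 for Satb1, -0.22 for Foxp1 and -0.13 for Foxo1. Subtracting the median of genes of the same level range, added after the data were seen, gave -0.66 for Lef1, -0.20 for Bach2, -0.33 for Satb1, -0.23 for Foxp1 and -0.13 for Foxo1. In CXCR3- innate minus naive cells, quantile normalization gave -0.55 for Lef1, 0.15 for Bach2, -0.089 for Satb1, 0.15 for Foxp1 and 0.056 for Foxo1, and the subtraction gave -0.51, 0.21, -0.046, 0.15 and 0.078 in that order of genes. Cyclic loess gave 0.07 for Bach2 and 0.0076 for Foxp1 there, and centring on the median gave 0.03 for Bach2. Between the innate populations Lef1 was at -0.18 after quantile normalization. Of 90 list medians 88 moved by less than 0.1. The exceptions came with quantile normalization in CXCR3- innate minus naive cells, at 0.0031 for signalling genes upstream of FOXO1 and -0.31 for surface and target genes of naive T cells.

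At 2-fold, 10 genes were lower and 14 higher in CXCR3+ innate minus naive cells, 23 lower and 2 higher in CXCR3- innate minus naive cells, and 1 lower and 15 higher between the innate populations. The 23 became 9 after quantile normalization and 15 with the linear offset. At 1.5-fold the counts were 71 lower and 51 higher, 163 lower and 10 higher, and 8 lower and 102 higher, in the same order of comparisons. At 3-fold they were 2 and 3, 3 and 1, and 0 and 2. With 1 array per population no library could be left out. No paired analysis was possible because each population had 1 array. Why the scalings differ was not tested.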
